A study of Mus musculus with 15 samples.

Results

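Malonyl-CoA is the carbon donor from which the liver builds fatty acids, and 7 genes that make it, break it down, use it or control those steps were followed in mouse liver after ethanol, in the presence or absence of an enzyme that oxidises NADH. The genes were Fasn, Acaca, Acacb, Mlycd, Thrsp, Mid1ip1 and Srebf1, taken by symbol from a deposited table of 16330 genes, and each was found in it as a single row. RNA of 15 liver libraries had been sequenced in 4 groups. Luciferase, a reporter enzyme, served as the control construct, with 5 libraries from the water gavage, named M1 to M5, and 3 from the ethanol gavage, named M10 to M12. The other construct was LbNOX, a bacterial oxidase that converts NADH to NAD+ and forms water, with 4 libraries from the water gavage, named M6 to M9, and 3 from the ethanol gavage, named M13 to M15. Tissue was taken 6 h after the gavage. The labels give the construct as the genotype, while the series' design text names ChREBP mice, so whether all groups shared a further allele is not settled here. Strain, age, ethanol dose, the way the constructs reached the liver and the cells that expressed them are not given in the sources used here, and no label ties a library to an animal of its own. Each p-value therefore rests on the spread between libraries, which may be technical.

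Acetyl-CoA carboxylases add carbon dioxide to acetyl-CoA to form malonyl-CoA. Acaca encodes the cytosolic carboxylase, which feeds fatty acid synthesis, and Acacb the carboxylase at the mitochondrial outer membrane, whose product restrains carnitine palmitoyltransferase and so the entry of fatty acids into mitochondria. Fasn encodes the multifunctional synthase that condenses malonyl units into palmitate, and Mlycd encodes malonyl-CoA decarboxylase, which turns malonyl-CoA back into acetyl-CoA. Thrsp (Spot 14) and Mid1ip1 (MIG12) are small related proteins without known catalytic activity that promote lipogenesis, Mid1ip1 by assembling acetyl-CoA carboxylase into active polymers. Srebf1 encodes SREBP-1, the insulin-responsive transcription factor that activates many lipogenic genes.

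In GENCODE vM21 on GRCm38 all 7 genes are protein-coding. Fasn lies at chr11:120805846-120824547, Acaca at chr11:84129672-84401651 and Srebf1 at chr11:60199089-60222581. Acacb lies at chr5:114146535-114250761, Mlycd at chr8:119394878-119411102, Thrsp at chr7:97412938-97417730 and Mid1ip1 at chrX:10715013-10719690.

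Levels are normalized counts, that is, reads per gene divided by a factor for each library by the authors. Recovered depth was 10.6 to 23.7 M reads per library. The members lay well above the filter on low values, and all 7 passed it and were tested; the fewest recovered reads were 290, for Mid1ip1 in M13. Hepatocyte markers were abundant in every group, with 7 of 7 tested and a summed level of at least 548445 normalized counts. Water libraries M3 and M8 had the lowest Fasn, Thrsp and Mlycd levels of their groups. The limma counts of called members and pathway genes were therefore repeated without these libraries, but counts of separated groups and of cell type markers were not. They also stood apart in markers of other cell types: the summed Kupffer cell markers were 2659 in M3 and 2289 in M8 against 1015 to 1334 in the other water libraries, and the summed endothelial markers 2906 and 3148 against 1619 to 1891. M8 had the lowest hepatocyte marker sum of the 15 libraries. Among the ethanol libraries M15 had the highest of these sums, 1878 for Kupffer cells and 2851 for endothelial cells. The part of these cells in the members' levels was not tested. Changes are log2 differences of the normalized count plus 1, estimated with limma in a single fit of the 4 groups and adjusted over 13570 tested genes, with genes called at an adjusted p below 0.05.

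In luciferase livers, 6 of the 7 genes rose after ethanol and the decarboxylase Mlycd did not pass the test. Of all genes tested in this comparison, 7.75% were called, 4.62% as higher and 3.13% as lower. The 7 genes were chosen with earlier results of these data known, so part of any excess may come from that choice. The median log2 fold change of the 7 genes was 1.57, against 0.01 over all genes tested. Thrsp rose most, followed by Fasn, Acaca, Mid1ip1, Acacb and Srebf1. All 6 were called when any single luciferase library was omitted, and also without M3 and M8. For each of these 6 genes the 3 ethanol libraries lay above all 5 water libraries, a separation found upward in 8.32% and downward in 6.39% of all genes.

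Fasn, the synthase, was at 1439, 1456, 658, 1352 and 2659 normalized counts in luciferase water libraries M1 to M5 and at 9296, 5942 and 6196 in luciferase ethanol libraries M10 to M12. The lowest ethanol library was thus above the highest water library, M5. The means were 1513 ± 721 (SD, n = 5) and 7145 ± 1868 (SD, n = 3), a log2 fold change of 2.34 (SE 0.43, limma adjusted p = 0.00396). In LbNOX livers Fasn was at 1432, 1421, 844 and 2597 after water and at 1515, 2611 and 873 after ethanol, and the groups overlapped. Across the 4 groups the order of the means was luciferase water, LbNOX water, LbNOX ethanol and luciferase ethanol, and only the last stood apart from its neighbour in every library.

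**Figure D1:**
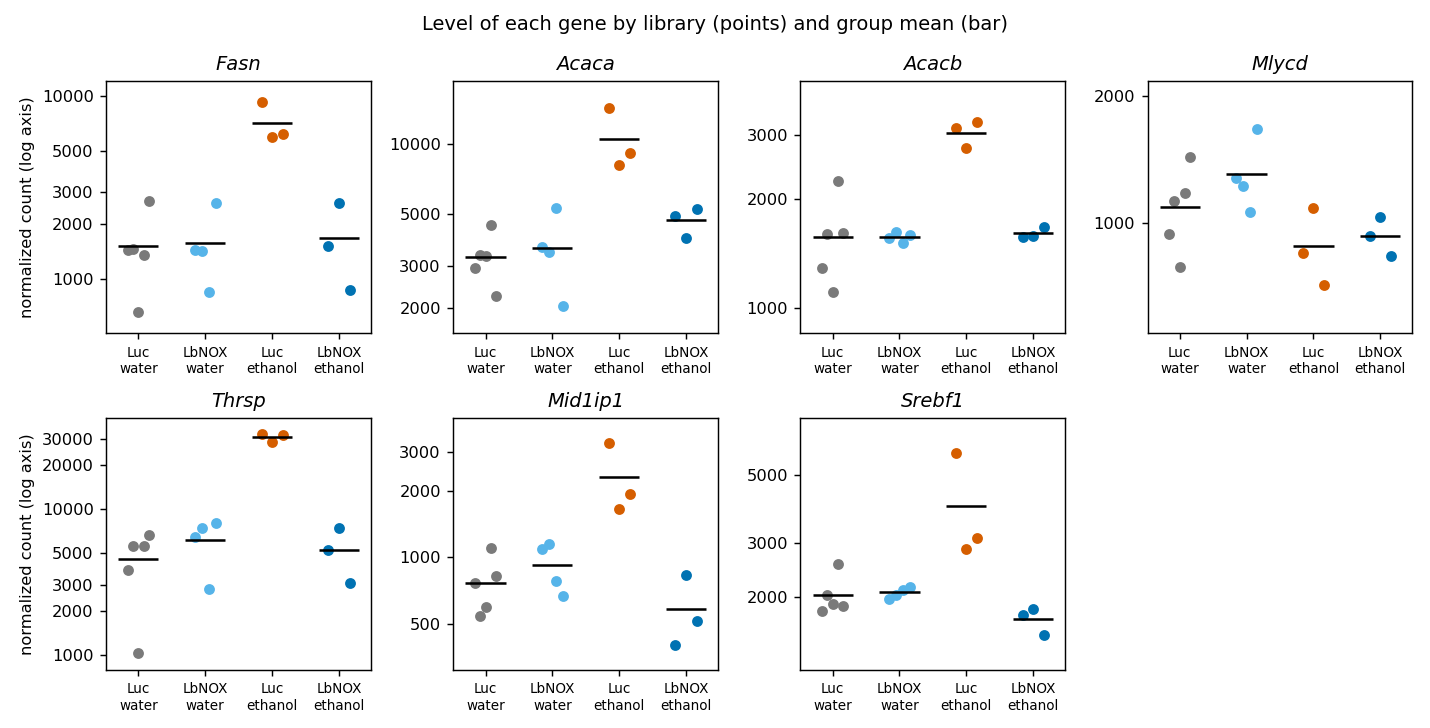
Normalized counts (log axis) of the 7 genes in each library, as points, by group, with the group mean as a bar. For every gene except Mlycd the 3 luciferase ethanol libraries lie above all libraries of the other groups.

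Both acetyl-CoA carboxylases rose in luciferase livers. Acaca was at 2966, 3345, 3324, 4502 and 2250 after water and at 14253, 8128 and 9156 after ethanol. Its mean went from 3277 ± 815 (SD, n = 5) to 10512 ± 3280 (SD, n = 3), a log2 fold change of 1.67 (SE 0.28, limma adjusted p = 0.00215). Ethanol library M10 was the highest of the 15. Acacb was at 1289, 1595, 1110, 2244 and 1607 after water and at 3136, 2752 and 3247 after ethanol, and again the groups did not overlap. The Acacb mean went from 1569 ± 432 to 3045 ± 259, a log2 fold change of 0.99 (SE 0.17, limma adjusted p = 0.00239). Per kilobase of annotated exon, the levels of the carboxylases were near each other after water, at 192 ± 47.7 for Acaca and 163 ± 44.9 for Acacb. After ethanol they were 616 ± 192 and 316 ± 26.9 normalized counts per kilobase. The divisor is the union of all annotated exons, 17074 bases for Acaca and 9632 for Acacb, and not the length of the transcripts expressed.

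Acacb is the main carboxylase of muscle, so muscle markers are given beside it. The summed level of 6 muscle markers (Ckm, Acta1, Mb, Myh7, Tnnt2 and Tnnt3) was 702 to 977 normalized counts in luciferase ethanol libraries, 3.52 to 789 in luciferase water, 41.6 to 646 in LbNOX water and 52.6 to 309 in LbNOX ethanol libraries. None of the 5 markers tested was called after ethanol in luciferase livers, where 7.75% of all genes were called (for Ckm the log2 fold change was 2.82, limma adjusted p = 0.207). In Myh7 and Mb the value was 0 in some libraries of the water groups. In M1 to M5 the muscle sums were 19.8, 789, 533, 3.52 and 243, beside Acacb levels of 1289, 1595, 1110, 2244 and 1607. Ckm was at 83.5 to 141 in luciferase ethanol and at 1.17 to 82.7 in luciferase water libraries. The part of muscle RNA in the rise of Acacb was not tested.

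Mlycd, which removes malonyl-CoA, went the other way in its mean without passing the test. It was at 938, 1128, 784, 1174 and 1428 in luciferase water libraries and at 850, 1082 and 712 after ethanol, with overlapping groups. The means were 1090 ± 245 (SD, n = 5) and 881 ± 187 (SD, n = 3), a log2 fold change of −0.30 with a 95% interval from −0.72 to 0.12 (limma adjusted p = 0.424).

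Thrsp had the highest level per kilobase of the 7 genes in every group and showed the largest rise. It was at 3794, 5540, 1026, 5570 and 6580 in luciferase water libraries and at 32419, 28676 and 32184 after ethanol. The ethanol libraries lay close together, whereas M3 was far below the other water libraries. The mean went from 4502 ± 2187 (SD, n = 5) to 31093 ± 2097 (SD, n = 3), a log2 fold change of 3.03 (SE 0.52, limma adjusted p = 0.00272); without M3 it was 2.56. Its paralog Mid1ip1 was at 766, 540, 593, 1103 and 827 after water and at 3313, 1658 and 1949 after ethanol. The Mid1ip1 mean went from 766 ± 223 to 2307 ± 883, a log2 fold change of 1.57 (SE 0.30, limma adjusted p = 0.00449).

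Srebf1 had the smallest rise of the 6 genes. It was at 1796, 2037, 1897, 2573 and 1876 in luciferase water libraries and at 5912, 2874 and 3112 after ethanol, and M10 was far above the other ethanol libraries. The mean went from 2036 ± 313 (SD, n = 5) to 3966 ± 1690 (SD, n = 3), a log2 fold change of 0.89 (SE 0.19, limma adjusted p = 0.0110). Without M10 the log2 fold change was 0.57 (limma adjusted p = 0.0434), and with the luciferase groups fitted alone the adjusted p was 0.0642. The gene is transcribed from alternative first exons into SREBP-1a and SREBP-1c, which the table does not separate.

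M10 had the highest Fasn, Acaca, Mid1ip1, Srebf1 and Thrsp levels of all 15 libraries, while Acacb was highest in M12. Depth in M10 was 13.8 M reads, within the range of the other ethanol libraries of both constructs.

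Promoter windows of the 6 genes that rose are shown for their sequence motifs, beside that of Mlycd, which did not pass the test. Of the 3 Srebf1 starts the most downstream is printed. All 7 genes had an entry among RefSeq promoter windows on GRCm38.p6, each covering 250 bases before and 50 bases from the annotated start, with 9 windows in all because Srebf1 has 3 starts. Capitals mark matches, on either strand, to the CCAAT box bound by NF-Y (CCAAT, or ATTGG on the other strand), the GC box bound by Sp1-type factors (GGGCGG, or CCGCCC on the other strand), the core letters of a sterol regulatory element (TCACCC) and the TATA box (TATAAA). Windows are at chr11:120824498-120824797 (minus strand) for Fasn, chr7:97417501-97417800 (minus) for Thrsp, chrX:10717115-10717414 (plus) for Mid1ip1, chr11:60210422-60210721 (minus) for Srebf1, chr11:84195188-84195487 (plus) for Acaca, chr5:114165268-114165567 (plus) for Acacb and chr8:119394644-119394943 (plus) for Mlycd.
Fasn: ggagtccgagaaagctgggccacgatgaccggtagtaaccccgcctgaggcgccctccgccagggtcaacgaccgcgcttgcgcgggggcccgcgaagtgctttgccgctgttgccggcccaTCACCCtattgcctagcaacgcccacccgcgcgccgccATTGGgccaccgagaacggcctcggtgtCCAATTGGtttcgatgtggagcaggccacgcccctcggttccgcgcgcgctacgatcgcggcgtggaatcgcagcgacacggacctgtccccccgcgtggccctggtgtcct
Thrsp: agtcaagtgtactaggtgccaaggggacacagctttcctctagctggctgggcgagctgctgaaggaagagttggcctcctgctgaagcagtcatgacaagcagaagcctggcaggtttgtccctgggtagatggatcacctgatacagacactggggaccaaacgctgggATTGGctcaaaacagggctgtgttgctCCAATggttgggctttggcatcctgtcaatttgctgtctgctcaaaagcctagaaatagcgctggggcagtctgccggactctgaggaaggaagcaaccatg
Mid1ip1: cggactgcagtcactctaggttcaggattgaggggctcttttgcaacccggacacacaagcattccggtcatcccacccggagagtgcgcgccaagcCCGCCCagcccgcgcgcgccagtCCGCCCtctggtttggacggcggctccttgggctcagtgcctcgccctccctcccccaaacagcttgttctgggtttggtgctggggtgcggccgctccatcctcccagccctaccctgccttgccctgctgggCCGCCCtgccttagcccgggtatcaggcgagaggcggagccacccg
Srebf1: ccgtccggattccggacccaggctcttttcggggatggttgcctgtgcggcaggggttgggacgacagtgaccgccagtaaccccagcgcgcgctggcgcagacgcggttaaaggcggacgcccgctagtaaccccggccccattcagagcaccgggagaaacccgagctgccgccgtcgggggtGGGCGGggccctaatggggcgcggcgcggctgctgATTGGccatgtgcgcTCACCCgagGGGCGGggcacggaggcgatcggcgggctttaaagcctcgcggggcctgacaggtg
Acaca: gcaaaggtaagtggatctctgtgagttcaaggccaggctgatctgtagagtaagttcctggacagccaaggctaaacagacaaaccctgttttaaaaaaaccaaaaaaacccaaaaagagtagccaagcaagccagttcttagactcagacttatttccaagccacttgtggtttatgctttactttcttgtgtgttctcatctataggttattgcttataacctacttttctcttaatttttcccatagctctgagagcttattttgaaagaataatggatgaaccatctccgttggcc
Acacb: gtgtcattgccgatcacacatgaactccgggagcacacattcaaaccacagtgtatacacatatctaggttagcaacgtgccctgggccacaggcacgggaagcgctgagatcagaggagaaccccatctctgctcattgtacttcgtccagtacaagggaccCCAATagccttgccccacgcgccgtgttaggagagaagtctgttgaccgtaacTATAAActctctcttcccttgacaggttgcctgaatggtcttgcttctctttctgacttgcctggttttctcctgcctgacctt
Mlycd: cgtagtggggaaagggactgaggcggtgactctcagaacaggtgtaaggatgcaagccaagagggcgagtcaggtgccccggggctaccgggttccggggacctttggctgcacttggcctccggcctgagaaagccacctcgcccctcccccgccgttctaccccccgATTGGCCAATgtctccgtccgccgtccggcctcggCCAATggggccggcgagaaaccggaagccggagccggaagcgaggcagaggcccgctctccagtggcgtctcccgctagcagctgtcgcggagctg
Positions are counted from 1 at the start base, with −1 just before it. The Fasn window held the core letters of a sterol regulatory element at −128 to −123 and CCAAT boxes starting at −90, −62 and −59, of which the last 2 overlap on opposite strands. The Srebf1 window held an ATTGG at −30, TCACCC at −15 and GGGCGG at −65 and −6, the last of which ended just before the start. Thrsp had CCAAT boxes starting at −79 and −52, Mid1ip1 had 3 GC boxes and no CCAAT box, and Mlycd had CCAAT boxes starting at −81, −76 and −46. Acacb had a CCAAT box starting at −87 and a TATA box at −34, and the Acaca window held none of the motifs searched. The starts used for Acaca (84195438), Acacb (114165518) and Mid1ip1 (10717365) lie inside genes that begin at 84129672, 114146535 and 10715013 in GENCODE. The sequence at those beginnings was not searched. Of the other Srebf1 windows, that of the most upstream start held a CCAAT box at −166, and that of the middle start held 3 GC boxes and no CCAAT box. CCAAT boxes were thus found in windows of Fasn, Thrsp, Acacb, Srebf1 and Mlycd and in none of Acaca and Mid1ip1. Of 32851 RefSeq windows, 37.4% held a CCAAT box, 35.7% a GC box, 16.2% TCACCC and 13.6% a TATA box. None of the 9 windows held the longer sterol element TCACNCCAC (1.24% of all windows), the E-box CACGTG (7.15%) or the carbohydrate response element consensus (0.027%), which says only that these letters are not in these windows.

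In LbNOX livers, none of the 7 genes was called after ethanol, in a comparison where genes called in either direction made up 0.00737% of those tested. With edgeR and DESeq2 on recovered reads the count was also 0 of 7, where edgeR called 1 and DESeq2 282 of all 13570 genes. By limma Mlycd and Mid1ip1 had an unadjusted p under 0.05, as had 1571 of the 13570. The log2 fold change was 0.06 for Fasn (95% interval −0.91 to 1.02), 0.46 for Acaca (−0.17 to 1.08), 0.04 for Acacb (−0.34 to 0.41) and −0.21 for Thrsp (−1.38 to 0.96). The upper ends of these 4 intervals lay below the estimates in luciferase livers, but this is no test of the difference, which is given after the comparisons of the constructs. Without M8 the Fasn value was −0.20 and without M14 it was −0.34.

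Among LbNOX livers the members with lower means after ethanol were Mlycd, Mid1ip1, Srebf1 and Thrsp. Mlycd was at 1275, 1220, 1060 and 1668 after water and at 928, 1032 and 833 after ethanol, so all ethanol libraries lay below all water libraries (log2 fold change −0.47, limma adjusted p = 0.401). Srebf1 was at 1977, 2036, 2111 and 2162 after water and at 1755, 1833 and 1508 after ethanol, also without overlap (−0.29, limma adjusted p = 0.606). Such a separation was found downward in 5.49% and upward in 5.42% of all genes in this comparison. Mid1ip1 was at 1095, 1155, 781 and 668 after water and at 401, 835 and 511 after ethanol, with overlapping groups (−0.70, limma adjusted p = 0.411). Acacb was nearly constant, at 1557, 1619, 1506 and 1593 after water and 1571, 1578 and 1677 after ethanol.

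Between constructs after water, 0 of 7 genes were called by limma, as were 0% of all genes tested. edgeR and DESeq2 also called 0 of 7, and 0 and 18 of all 13570 genes. No member had an unadjusted limma p under 0.05, which 440 of all 13570 genes had. Thrsp had the largest difference, 0.59 higher in LbNOX on the log2 scale with a 95% interval from −0.44 to 1.61, and was at 6398, 7335, 2830 and 7960 in M6 to M9. The other differences lay between 0.04 and 0.28, in groups that overlapped for every gene; groups separated upward in 0.317% and downward in 0.619% of all genes.

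After ethanol, 6 of 7 genes were lower in LbNOX than in luciferase livers, and Mlycd did not pass. Of all genes tested in this comparison, 6.06% were called, 3.82% as lower and 2.24% as higher, and the 6 genes had no overlap between groups, as in 15.4% of all genes (14.1% separated upward). Thrsp was at 5219, 7440 and 3093 in LbNOX ethanol libraries M13 to M15, a log2 difference of −2.65 from luciferase ethanol (SE 0.58, limma adjusted p = 0.0174). The difference was −2.21 for Fasn (SE 0.48, limma adjusted p = 0.0165) and −1.99 for Mid1ip1 (SE 0.33, limma adjusted p = 0.00360). For the remaining genes it was −1.15 for Srebf1, −1.12 for Acaca and −0.92 for Acacb, while Mlycd was at 0.10 with a 95% interval from −0.37 to 0.56. With only the ethanol groups fitted, Srebf1 did not pass (limma adjusted p = 0.0538). Acaca, at 4903, 3971 and 5277 in LbNOX ethanol libraries, passed narrowly (limma adjusted p = 0.0475), and its call ended when any of the 6 ethanol libraries was omitted, and also with quantile normalization (adjusted p = 0.0993), without the mean-variance trend (0.0681) and without the filter (0.0527). The number of genes called was 2 without M10, 3 without M12 and 3 without M15. This comparison and that of ethanol with water in luciferase livers share the libraries M10 to M12.

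**Figure D2:**
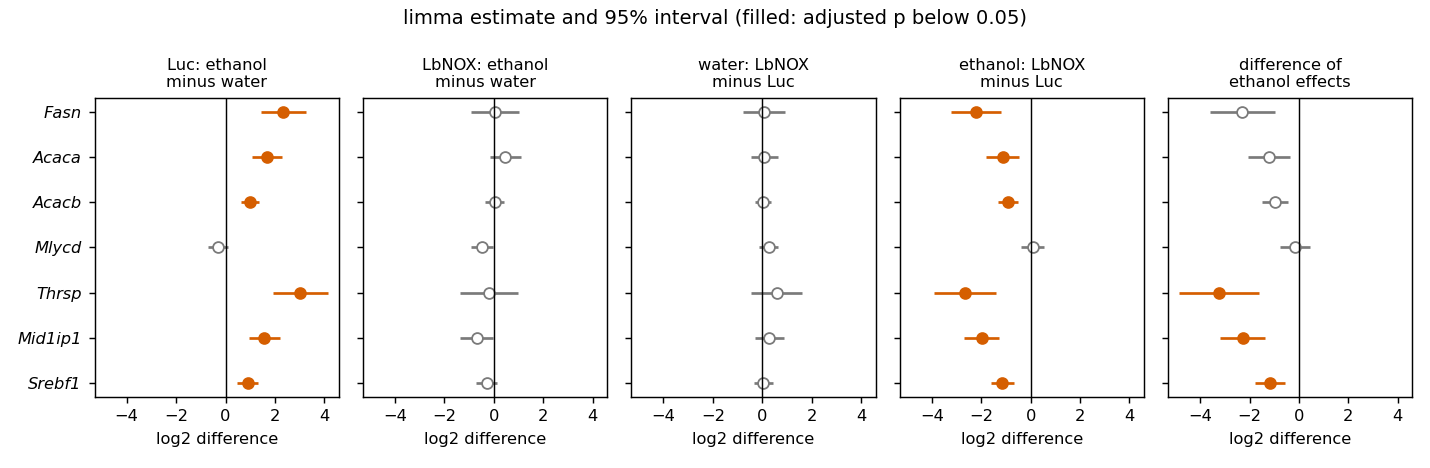
Log2 differences of the 7 genes in the 5 comparisons, with 95% intervals from limma; filled points have an adjusted p below 0.05. The filled points are the 6 rises in luciferase livers, the 6 lower values in LbNOX livers after ethanol, and Thrsp, Mid1ip1 and Srebf1 in the difference of the ethanol effects.

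The difference of the ethanol effects between constructs, tested directly over all 15 libraries, passed for 3 of 7 genes. Of all genes, 1.67% were called, 1.25% as lower and 0.427% as higher in LbNOX livers. The log2 difference, LbNOX minus luciferase, was −3.24 for Thrsp (SE 0.75, limma adjusted p = 0.0476), −2.27 for Mid1ip1 (SE 0.43, limma adjusted p = 0.0180) and −1.18 for Srebf1 (SE 0.28, limma adjusted p = 0.0486). Fasn was at −2.29 (95% interval −3.62 to −0.95, limma adjusted p = 0.0847), Acacb at −0.96 (−1.48 to −0.43, limma adjusted p = 0.0654), Acaca at −1.21 (−2.08 to −0.35, limma adjusted p = 0.162) and Mlycd at −0.17 (−0.78 to 0.43). The calls for Thrsp and Srebf1 were close to the threshold: the number of genes called was 0 without M10, M13 or M15, 1 without M1, M2, M6, M7, M9, M12 or M14, and 6 by DESeq2 on recovered reads. Without M3 and M8 it was 3, with Fasn passing (adjusted p = 0.0405) and Srebf1 not (0.0707). M3 and M8 had been picked for low Fasn, Thrsp and Mlycd levels, so this omission is no independent check on those genes. All these settings kept the negative sign for the 7 genes.

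Ratios of a pair of genes within a library do not depend on the scaling between libraries. The log2 ratio of Fasn to Mlycd, synthesis against breakdown, was 0.37 ± 0.43 in luciferase water (SD, n = 5) and 3.01 ± 0.51 in luciferase ethanol libraries (SD, n = 3). The 3 ethanol libraries, at 3.45, 2.46 and 3.12, lay above the 5 water libraries, which ran from −0.25 to 0.90. The difference was 2.64 (exact two-sided permutation p = 0.0179, the smallest that 56 splits can give, and 0.214 adjusted over 12 tests). In LbNOX livers the ratio was 0.17 ± 0.40 after water (SD, n = 4) and 0.70 ± 0.64 after ethanol (SD, n = 3; exact permutation p = 0.257, adjusted 0.514). With 3 against 3 libraries after ethanol the exact permutation test cannot go below 0.1, which it gave for the difference between constructs of −2.30 in this ratio (adjusted 0.3).

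The other ratios changed less. Acaca to Acacb was 1.07 ± 0.40 after water and 1.75 ± 0.38 after ethanol in luciferase livers (exact permutation p = 0.0893, adjusted 0.3). In LbNOX livers it was 1.12 ± 0.60 and 1.54 ± 0.18 (exact permutation p = 0.314, adjusted 0.514), so the mean was higher after ethanol with both constructs and passed with neither. Thrsp to Mid1ip1 was 2.36 ± 0.98 after water and 3.82 ± 0.46 after ethanol in luciferase livers (exact permutation p = 0.0536, adjusted 0.3); without M3 the difference was 1.07 in place of 1.46.

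**Figure D3:**
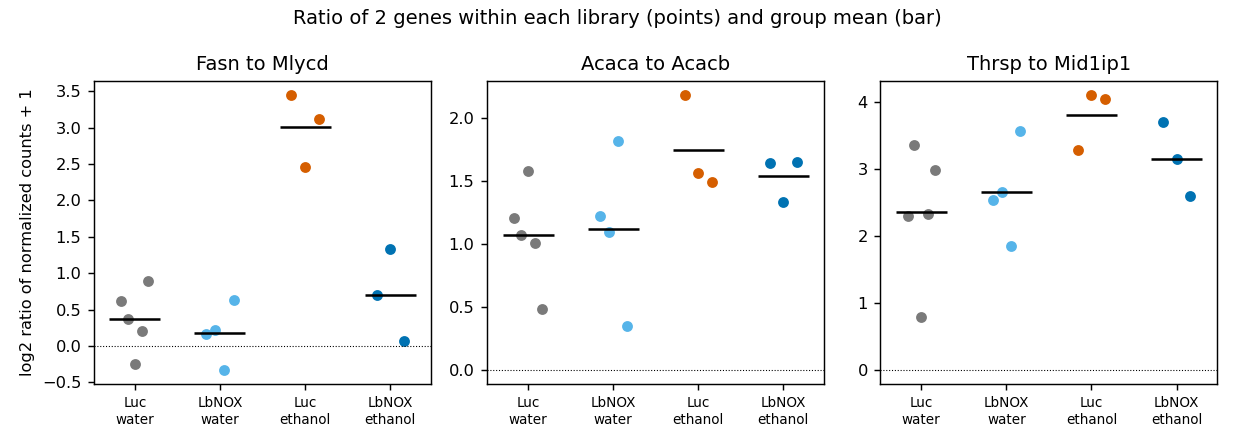
Log2 ratio of normalized counts plus 1 for Fasn to Mlycd, Acaca to Acacb and Thrsp to Mid1ip1 in each library (points) by group, with the group mean as a bar. The Fasn to Mlycd ratio of the 3 luciferase ethanol libraries (2.46 to 3.45) lies above that of every other library, while the other ratios overlap between groups.

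Among the 9 water libraries, taken as deviations from their group means, Fasn, Mlycd and Thrsp varied together. Over these 9 libraries Fasn and Mlycd had r = 0.940 and rho = 0.833 (exact permutation within groups, adjusted p = 0.0340 for r over 21 pairs), and r was 0.856 without M3 and M5, the libraries farthest from the median in Fasn. Fasn and Thrsp had r = 0.869 and rho = 0.717 (exact permutation, adjusted p = 0.0292), and Mlycd and Thrsp r = 0.853 and rho = 0.933 (exact permutation, adjusted p = 0.0292); without the 2 farthest libraries r was 0.762 and 0.755. Without M3 and M8, the libraries with high Kupffer and endothelial marker sums, r over 7 libraries was 0.873 for Fasn and Mlycd, 0.607 for Fasn and Thrsp and 0.853 for Mlycd and Thrsp. The synthase and the decarboxylase were therefore high and low in the same water libraries: M3 and M8 were low in both and M5 and M9 high in both. Acaca did not follow Fasn in these libraries (r = −0.751, rho = −0.617, exact permutation, adjusted p = 0.153 for r; −0.911 without M3 and M5). M5 and M9 had the lowest Acaca and the highest Fasn of their groups, and M8 the highest Acaca and the lowest Fasn. These pairs were examined after their values had been seen, and the libraries share their tissue and time of collection, so the relations are descriptive.

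**Figure D4:**
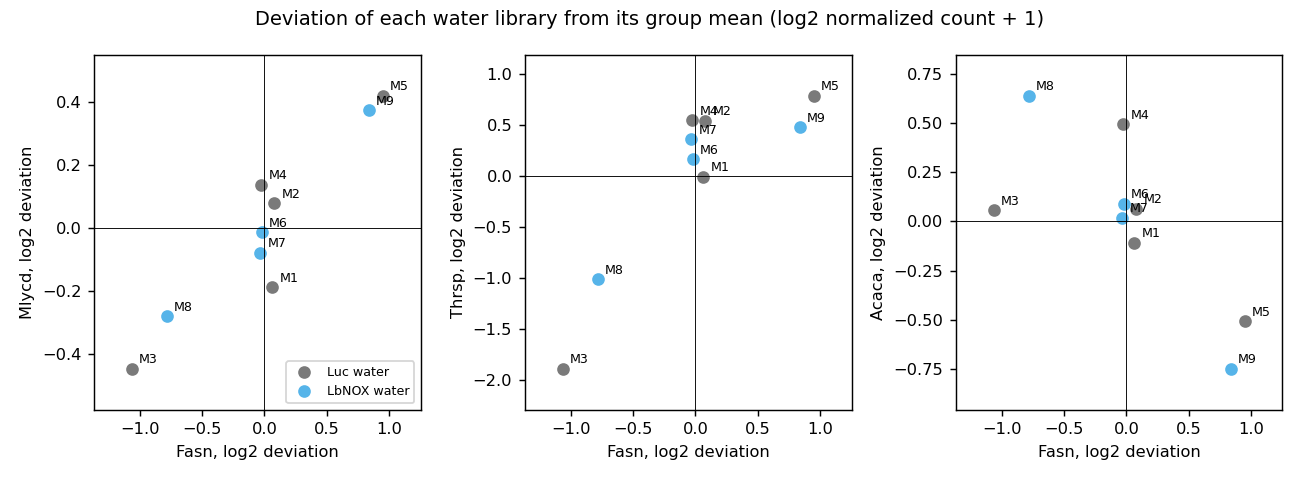
Deviation of Mlycd, Thrsp and Acaca from the group mean against that of Fasn in the 9 water libraries (log2 of the normalized count plus 1; grey luciferase, blue LbNOX). Mlycd and Thrsp rise with Fasn (r = 0.940 and 0.869), whereas Acaca is lowest in M5 and M9, where Fasn is highest.

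The steps before and after malonyl-CoA were described with 9 lists of pathway genes, 81 tested genes in all. In luciferase livers 17 of the 81 were called after ethanol (19 without M3 and M8). This count and those of each list below are to be read against the 7.75% of all genes called, 4.62% as higher and 3.13% as lower. The lists were chosen with earlier results of these data known, so part of any excess may come from that choice. In LbNOX livers limma called 0 of the 81, with 14 at an unadjusted p under 0.05, as had 1571 of all 13570 genes. edgeR called 0 of the 81 and 1 of all genes, and DESeq2 called 3 and 282. Without M3 and M8 limma called 1 of the 81 and 142 of all 13406 genes. Counts of the lists in the test of the difference are to be read against the 1.67% of all genes called there. Of 12 genes that supply acetyl-CoA and NADPH, 4 rose and 0 fell in luciferase livers after ethanol (median log2 fold change 0.46, against 0.01 over all genes). They were Acly, the citrate lyase of the cytosol that supplies acetyl-CoA (2.70, limma adjusted p = 2.1e-05), Me1, the NADP-dependent malic enzyme (1.00), Pgd of the pentose phosphate pathway (0.95) and Slc25a1, the mitochondrial citrate carrier (0.65). In LbNOX livers 0 of the 12 were called, with values of 0.01 for Acly, −0.25 for Me1, 0.21 for Pgd and −0.14 for Slc25a1. By limma, Acly alone among the 12 passed the test of the difference (−2.69, adjusted p = 0.00200). Without M3 and M8, 2 of the 12 passed it, as did 395 of all 13406 genes.

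Of 10 tested genes of elongation and desaturation, 2 rose and 1 fell in luciferase livers (median 0.16). Elovl6, which extends palmitate, had a mean of 1772 ± 521 normalized counts on water and 11208 ± 5080 on ethanol, a rise of 2.62 on the log2 scale (limma adjusted p = 4.91e-05), and Elovl5, an elongase of polyunsaturated fatty acids, rose by 0.64. Fads2, a desaturase of polyunsaturated fatty acids, fell by 0.84 on the log2 scale; in LbNOX livers it was at −0.72 without passing (limma adjusted p = 0.201). The elongase Elovl2 was at −0.51 (limma adjusted p = 0.0603). In the difference of the effects Elovl6 was called (−1.95, limma adjusted p = 0.0230).

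Carnitine palmitoyltransferase, the target that malonyl-CoA inhibits, had lower RNA in luciferase livers after ethanol. Of 5 genes for entry of fatty acids into mitochondria, 1 fell and 0 rose (median −0.51). Cpt1a, the liver form of the transferase, went from 9976 ± 1756 to 5715 ± 1844 normalized counts (−0.84, SE 0.22, limma adjusted p = 0.0322). In LbNOX livers it went from 10373 ± 2275 to 6191 ± 635 (−0.72, limma adjusted p = 0.246), and the difference between constructs was 0.12 (SE 0.32, limma adjusted p = 0.892). Cpt2 was at −0.42 and Cpt1b at −0.51 in luciferase livers, neither of which passed. For Cpt1c, a form known from brain, the water mean was 49.5 ± 39.9 normalized counts and the ethanol mean 19.5 ± 17.9 (limma adjusted p = 0.640).

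Lists of genes that modify or regulate the carboxylases had 1 call each in luciferase livers. Of 7 tested genes of enzyme maturation and turnover, 1 rose: Trib3, a pseudokinase reported to bring acetyl-CoA carboxylase to degradation in fat (1.91, limma adjusted p = 0.000188; −0.18 in LbNOX livers; difference −2.09, limma adjusted p = 0.00810). Of 10 genes of AMP-activated kinase, which inactivates acetyl-CoA carboxylase by phosphorylation, and its upstream factors, 1 rose: the subunit gene Prkab1 (0.70, limma adjusted p = 0.00107; −0.26 in LbNOX livers; difference −0.95, limma adjusted p = 0.00810). The catalytic subunit gene Prkaa2 was at 0.47 (limma adjusted p = 0.0844). Of 6 mitochondrial fatty acid synthesis genes, 0 were called in any of the 5 comparisons by limma, edgeR or DESeq2. The same held for 5 other biotin carboxylases, which carry the same cofactor as acetyl-CoA carboxylase. The luciferase medians of these lists were 0.05 and 0.09. In luciferase livers 0 and 1 of their genes had an unadjusted limma p under 0.05, as had 2859 of all 13570 genes. Among them Mcat, the mitochondrial malonyl transferase, was at 0.28 and Pcx, pyruvate carboxylase, at 0.53.

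Of 9 genes of SREBP processing, 2 rose and 2 fell in luciferase livers (median 0.19). Lpin1, a phosphatidate phosphatase that also restrains SREBP in the nucleus, rose from 3581 ± 2677 to 12827 ± 259 normalized counts (2.12, limma adjusted p = 0.00904), and Scap, the escort of SREBP, rose by 0.48. Insig1, which retains SREBP in the endoplasmic reticulum, fell by 0.96 and Srebf2, the SREBP of cholesterol synthesis, by 0.38. In LbNOX livers 0 of the 9 were called, with Insig1 at −0.57 (limma adjusted p = 0.230). None of the 9 passed the test of the difference by limma, where 2 had an unadjusted p under 0.05, edgeR called 0 and DESeq2 called 1. Over all 13570 genes, 1988 had an unadjusted p under 0.05 there, edgeR called 222 and DESeq2 called 633.

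Of 17 lipogenic transcription factor genes, 3 rose and 0 fell in luciferase livers (median 0.09). They were Mlxipl, which encodes ChREBP (1.48), Pparg (1.06, limma adjusted p = 0.00526) and Foxo1 (0.64). Nr1h3, the liver X receptor alpha that activates Srebf1, was at −0.43 in luciferase (limma adjusted p = 0.0505) and −0.78 in LbNOX livers (limma adjusted p = 0.0716). After ethanol, 4 factors were lower and 1 higher in LbNOX than in luciferase livers, against 3.82% lower and 2.24% higher of all genes. edgeR called 3 of the 17 and 752 of all 13570 genes, and DESeq2 called 6 and 1349. The lower ones by limma were Mlxipl, Pparg, Usf2 and Ppargc1b and the higher one Nfyb, of which the last 3 were named after their values were seen. By limma, Pparg alone passed the test of the difference (−1.35, adjusted p = 0.0366). DESeq2 called 4 of the 17 in that test, and 633 of all 13570 genes.

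**Figure D5:**
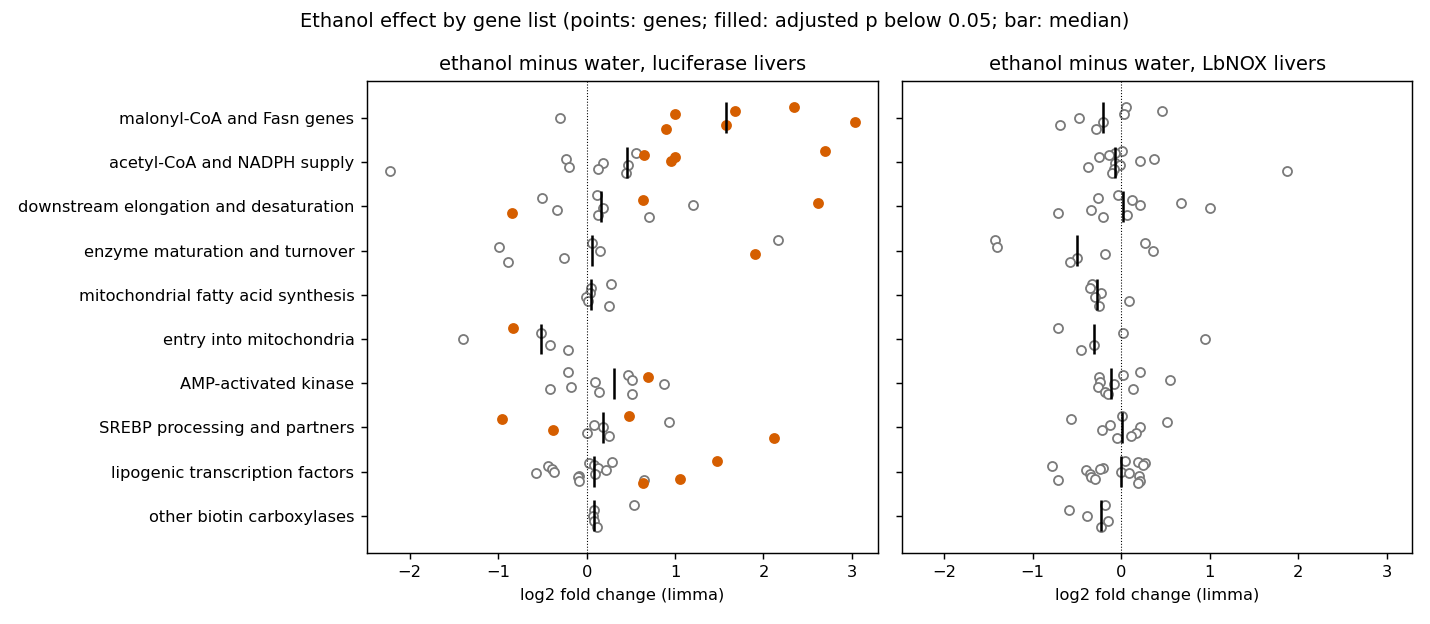
Log2 fold change after ethanol for each tested gene of the 7 members and of the 9 pathway lists, in luciferase livers (left) and LbNOX livers (right); filled points have a limma adjusted p below 0.05 and bars are medians. Filled points occur in luciferase livers, with 6 of 7 among the malonyl-CoA and Fasn genes, and none occurs in LbNOX livers.

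Genes with the pattern most like each member over the 15 libraries were found by Pearson's r on log2 values among 9506 genes with a mean of at least 100. For Fasn they included Mlxipl (0.970) and Nsmf (0.966), and for Thrsp they were G6pc (0.978), Pdhb (0.974) and Pygl (0.971). For Acaca they were Tecpr2 (0.963), Tgfbr2 (0.956) and Sh3pxd2a (0.949), and for Acacb Adarb1 (0.956), Wbp1l (0.955) and Klhl7 (0.950). Mid1ip1 was closest to Rassf3 (0.927), Bcl3 (0.922) and Zfp949 (0.918), Srebf1 to Necap1 (0.948), Klhdc7a (0.948) and Zdhhc9 (0.946), and Mlycd to Selo (0.963), Slc12a7 (0.940) and Pxmp4 (0.929). No gene named here was among the closest for more than 1 member. Among the members, Fasn and Thrsp were closest (0.950), then Acacb and Thrsp (0.896), while Fasn and Acaca had 0.566. The libraries share 4 groups, so these values are descriptions of patterns across them.

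Adipocytes also express Fasn, Acaca and Thrsp. The summed level of 6 adipocyte markers was 1050 to 1963 normalized counts in luciferase water libraries and 1490 to 1829 in luciferase ethanol libraries, 0 of 4 tested were called after ethanol in luciferase livers, and the defining marker Adipoq was at most 19.9 in luciferase water and 16.9 in luciferase ethanol libraries. In LbNOX livers the sum was 998 to 2491 after water and 1636 to 3455 after ethanol, where Fabp4, which endothelial cells also express, was at 616 to 1511 against 183 to 424 in luciferase ethanol libraries. The sums of the LbNOX ethanol group, in which 6 of the 7 genes were lower, overlapped those of luciferase ethanol, with M13 highest at 3455. Cidec reached 1939 in LbNOX ethanol and 1332 in luciferase ethanol libraries. By contrast, Adipoq, Cfd, Retn and Lep were lower in every LbNOX ethanol library than in any luciferase ethanol library. Such a separation was found downward in 15.4% and upward in 14.1% of all genes tested. Adipoq was at most 3.93 in LbNOX ethanol, and Cfd at most 15.7 against at least 48.6. Retn and Lep were near 0 in both groups. Retn was at 2.42 to 4.15 in LbNOX ethanol against 4.84 to 8.16 in luciferase ethanol libraries, and Lep at 0 against 1.17 to 3.74. The part of adipocyte RNA in the members' levels was not tested. Fewer cells of a type and less RNA per cell cannot be told apart in tissue RNA. Markers of Kupffer, endothelial and stellate cells, neutrophils and cholangiocytes had 0 members called after ethanol in luciferase livers by limma, and T and NK cell markers had 1 of 6, Nkg7, named after its value was seen (−2.36, adjusted p = 0.0486).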

How the data were processed

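RNA-seq of 15 mouse liver libraries was analysed from a single deposited table of 16330 genes, whose header gives the group and a library name, with no replicate number. All 15 columns were used. The table holds a signal, normalized counts that the authors divided by a factor for each library, and the low values are whole multiples of a step. Per the submitters' processing notes, Salmon 1.5.1, DESeq2 1.30.1 and mm10 were used, without a role for each; per the labels' protocols, libraries were made with a KAPA mRNA kit. Dividing by the step (0.599 to 1.38) gave whole reads, within 0.001, for all 244950 values, and a depth of 10.6 to 23.7 M reads. No pair of libraries in a group was a duplicate (chi-square per degree of freedom of at least 26.5).

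limma 3.58.1 (R 4.3.3), with a trend and robust variances, was fitted to log2-transformed values (pseudocount 1). A gene had to reach 10 in 3 libraries, which left 13570, with Benjamini-Hochberg adjustment. edgeR 4.0.16 and DESeq2 1.42.0 on recovered reads, other filters, pseudocounts and scaling, and omission of libraries were alternatives. The test was tried on simulated data. Exon lengths came from GENCODE vM21 (GRCm38), promoters from RefSeq (GRCm38.p6). The genes named were the 7 members, up to 4 genes of each list with the smallest p in luciferase livers, and the 3 genes most like each member, of which 1 is not reported here. The members and lists were chosen with earlier results of these data known.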

Additional observations from a re-analysis of the deposited data

Results flagged for a closer look

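The ethanol effect differed between constructs by the test of the difference itself for 3 genes: Thrsp (−3.24, LbNOX minus luciferase, log2; limma adjusted p = 0.0476), Mid1ip1 (−2.27; 0.0180) and Srebf1 (−1.18; 0.0486). Of all genes, 1.67% were called in that test, and 0 of the 7 members were called when M10, M13 or M15 was omitted. For Srebf1 all 3 luciferase ethanol libraries also lay above, and all 3 LbNOX ethanol libraries below, the water libraries of their construct. In luciferase livers 8.32% of all genes separated upward. The LbNOX value of Srebf1 did not pass (log2 fold change −0.29, 95% interval −0.72 to 0.14, limma adjusted p = 0.606). In LbNOX livers 5.49% of all genes separated downward. Dixon's test at the 95% level passed for no library of the 2 water groups in the 7 genes; with 4 or 5 libraries it has little power, and M3 had a Thrsp level of 1026 against 3794 to 6580 in the rest of its group.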

How the results depend on the processing

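The 6 rises in luciferase livers passed under all alternatives except that Srebf1 did not when only the luciferase groups were fitted. The numbers of genes called with single libraries omitted were 6 to 6 in luciferase livers, 0 to 0 in LbNOX livers and after water, 2 to 5 between constructs after ethanol and 0 to 4 for the difference. For the difference the number was 1 without the mean-variance trend, 1 without a filter and 6 by DESeq2; the causes were not tested.

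Small values changed sign. In LbNOX livers with single libraries omitted Fasn ran from −0.34 to 0.45 and Thrsp from −0.55 to 0.13. Between constructs after water Fasn ran from −0.20 to 0.34, Acaca from −0.12 to 0.34, Acacb from −0.074 to 0.18 and Srebf1 from −0.0057 to 0.12; after ethanol Mlycd ran from −0.048 to 0.25. Without M3 and M8, Fasn in LbNOX livers was −0.20 and, after water between constructs, Acaca was −0.11 and Acacb −0.054; Acacb was −0.000403 by edgeR. The ratio of Acaca to Acacb between constructs ran from −0.18 to 0.31 after water (−0.053 without M3 and M8) and from −0.33 to 0.013 after ethanol, and that of Thrsp to Mid1ip1 after water from −0.088 to 0.57.

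Over all genes the calls were 1052, 1, 0, 822 and 227 (ethanol in luciferase livers, ethanol in LbNOX livers, constructs after water, constructs after ethanol, difference), and 1621, 282, 18, 1349 and 633 by DESeq2. With single libraries omitted they ran from 446 (without M10) to 1217, 0 to 28 (without M14), 0 to 1, 299 (without M10) to 944 and 64 (without M10) to 403 (without M8). They moved by over 1.5 times without M10 or M12 for ethanol in luciferase livers, without M10, M12, M13 or M15 for the constructs after ethanol, and without M1, M6, M7, M8, M9, M10, M12, M13 or M15 for the difference. Without M3 and M8 they were 142 for ethanol in LbNOX livers, 2 for the constructs after water and 395 for the difference. Fitting only the luciferase groups gave 611 for ethanol in those livers, and leaving out the trend gave 151 for the difference. No paired analysis was possible because the columns carry no replicate numbers. Groups of 3 libraries limit precision more than depth does: the fewest reads, 290, carry a counting error of 5.87%.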

Other observations

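The spread between libraries differed by gene and group. Acacb had a coefficient of variation of 27.5% in luciferase water libraries, 3.10% in LbNOX water and 3.69% in LbNOX ethanol libraries. For Srebf1 these were 15.4%, 3.94% and 9.99%, whereas Fasn varied by 47.6%, 46.7% and 52.7% in the same groups. In luciferase ethanol libraries the order was another, with 42.6% for Srebf1, 26.1% for Fasn and 8.52% for Acacb. The differences in spread were not tested.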
